A study of Mus musculus with 9 samples.

Results

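The Bcl-2 family decides whether a cell keeps the outer membrane of its mitochondria intact. Survival proteins (Bcl-2, Bcl-xL, Mcl-1 and A1) hold the pore-forming effectors Bax and Bak in check, and BH3-only proteins (Bim, Bid, Puma and Noxa) bind the survival proteins or activate the effectors directly. When the effectors win, cytochrome c leaves the mitochondria, caspases are activated and the cell dies by apoptosis. Macrophages are known to rely on Mcl-1 and on NF-κB-driven survival genes when they meet bacterial products.

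The levels of 10 genes of this family were followed in RAW264.7 macrophages, a mouse macrophage-like line from male tumors induced by Abelson murine leukemia virus, with a WT genotype. The genes were chosen by symbol: the survival genes Mcl1, Bcl2a1b, Bcl2l1 and Bcl2, the effector genes Bax and Bak1, and the BH3-only genes Bid, Pmaip1, Bcl2l11 and Bbc3. They are 10 of the 55401 genes in the table. The cells were treated with DMSO, the vehicle, with DMSO+LPS (written LPS below), a component of the bacterial wall, or with LPS+Skatole (written LPS + Ska), where skatole is an indole compound that gut bacteria make from tryptophan. Each group had 3 samples, numbered 5, 6 and 7. The labels give 24 h of treatment and the study's methods a longer time, the labels give no dose, and none of the groups used here received skatole without LPS. Nothing in the labels says that the samples came from separate cultures. The p-values measure the spread between the columns given for these samples. That spread may be technical and rests partly on tied columns, described below.

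Levels are TPM, the share of a transcript in its sample per unit of length, scaled to a fixed total, so levels of different genes can be compared and the sequencing depth is unknown. With LPS and with LPS + Ska the columns are tied: wherever replicates 6 and 7 were both above 0, replicate 5 equalled their mean (17950 of 17950 genes and 17658 of 17658, within 1e-05 TPM), against 0.06% of genes with DMSO. No more than 2 values per gene can then be independent in either group. An SD over the 3 columns is that of tied columns, and each SE, interval and p-value that uses these groups also rests on them. Groups with tied columns are written with "n = 3 columns". The 2 values per group that the tie allows, called recovered values, were used as an alternative. The 9 macrophage markers were all detected, with a summed TPM of 12414 to 13380 with DMSO, 7344 to 7742 with LPS and 13671 to 13929 with LPS + Ska, whereas none of 14 markers of other cell types reached a mean TPM of 1 and 7 were at 0 in all 9 columns. All 6 genes listed as a check of the LPS response, Nos2, Tnf, Il1b, Cxcl10, Ptgs2 and Acod1, rose with LPS. TPM is RNA per gene, so protein levels, protein cleavage and splice forms, such as the long and short forms of Bcl2l1, were not measured.

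All 10 genes had a mean TPM of at least 1 and were tested with limma on log2(TPM + 1) among 12819 genes. A call required an adjusted p below 0.05 together with a change past the fold limits, 1.5 upwards (0.585 on the log2 scale) and 0.67 downwards (-0.578). With LPS compared with DMSO, which asks what LPS alone did, 2 of the 10 genes were called higher (Bcl2l1 and Bcl2a1b) and 3 lower (Bax, Bak1 and Bbc3), where 12.7% of all genes tested were called higher and 20.0% lower. With LPS + Ska compared with LPS, which asks what skatole added, 1 gene was called higher (Bax) and 0 lower by limma, where 3.35% and 6.14% of all genes were. Of the other 9 genes, Bcl2l1, Bcl2l11 and Bid had an adjusted p below 0.05 inside the fold limits. There 2 and 4 of the 10 genes were higher and lower at an unadjusted p below 0.05 in limma. Of the 12819 genes, 1139 and 2524 were so at an adjusted p below 0.05 without fold limits. The share of all genes at the unadjusted limit was not counted, so counts at that limit, here and below, stand without it. With LPS + Ska compared with DMSO, 2 genes were called higher (Bcl2l1 and Bcl2a1b) and 3 lower (Bcl2, Bak1 and Bbc3), where 11.4% and 25.3% of all genes were. The comparisons share samples: LPS stands in the first and second, and DMSO stands in both of the comparisons named for it. The median difference of the 10 genes was -0.27, -0.18 and -0.29 on the log2 scale in the order given, and that of all genes tested was -0.067, -0.096 and -0.18. Scaling the columns by median ratios moved the median of all genes by 0.074, 0.091 and 0.16. It turned the calls of all genes from 429 higher and 787 lower into 588 and 543 in the comparison with LPS, and from 1457 and 3243 into 2153 and 2295 for LPS + Ska compared with DMSO.

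**Figure D1:**
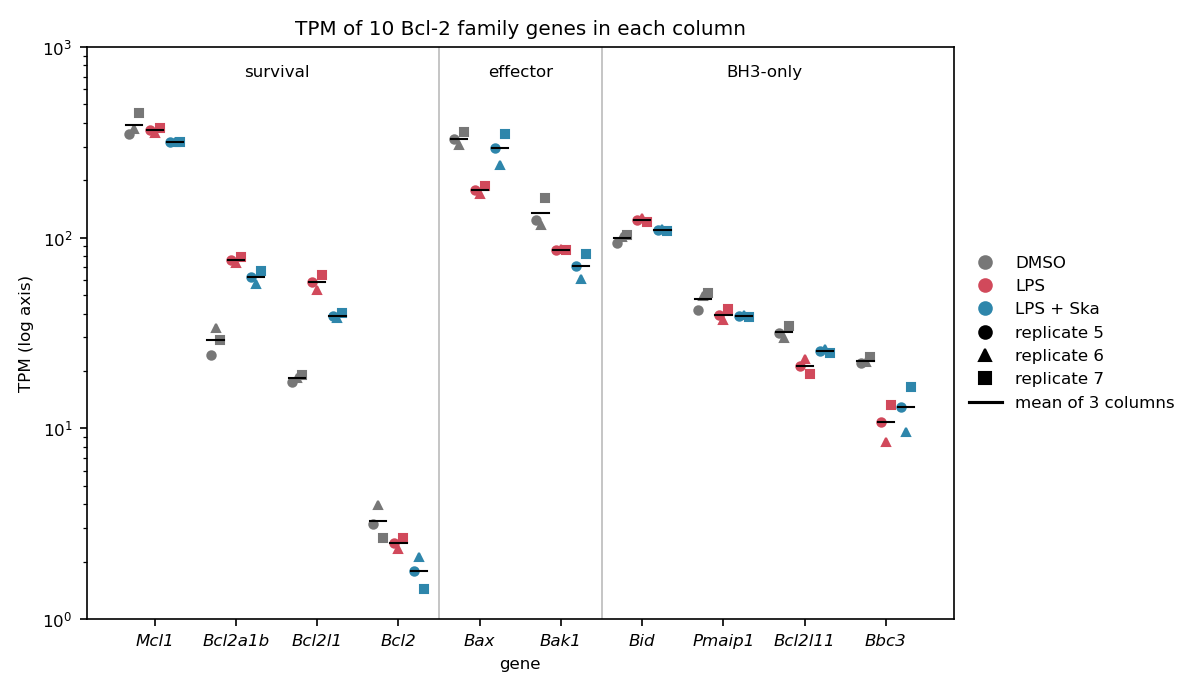
TPM of the 10 genes on a log axis in each of the 9 columns, by role and group; circles, triangles and squares are replicates 5, 6 and 7 and bars are means of 3 columns. Mcl1 and Bax stood at the top in every group and Bcl2 at the bottom, and Bcl2a1b and Bcl2l1 sat above their DMSO columns in all LPS and LPS + Ska columns.

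The survival gene with the most RNA was Mcl1 (ENSMUSG00000038612, chr3:95658788-95663176, plus strand, GRCm38), which encodes a short-lived protein that holds Bak and Bim. Its TPM was 349, 373 and 453 with DMSO, 366, 355 and 378 with LPS, and 318, 318 and 317 with LPS + Ska (replicates 5, 6 and 7, the order used throughout). The LPS columns lay inside the DMSO range, and the LPS + Ska columns lay below all other columns. The difference between LPS and DMSO was -0.087 on the log2 scale (95% confidence interval -0.28 to 0.10, adjusted p = 0.399 in limma), and it was above 0 without DMSO replicate 7. LPS + Ska differed from LPS by -0.20 (adjusted p = 0.104) and from DMSO by -0.29 (adjusted p = 0.0137), inside the fold limit. Mcl1 made up 88.5% ± 1.5 (SD, n = 3) of the TPM of the 4 survival genes with DMSO, 72.7% ± 0.50 (SD, n = 3 columns) with LPS and 75.6% ± 1.1 (SD, n = 3 columns) with LPS + Ska. Its share was thus lower in all LPS and LPS + Ska columns than in any DMSO column, while its own level had passed no fold limit.

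Bcl2l1 (ENSMUSG00000007659, chr2:152780668-152831728, minus strand) had the largest difference of the 10 genes between LPS and DMSO. It encodes Bcl-xL, which binds Bax, Bak and BH3-only proteins and has long been studied as an NF-κB target. Its TPM was 17.5, 18.4 and 19.0 with DMSO, 58.5, 53.4 and 63.6 with LPS and 39.0, 37.8 and 40.2 with LPS + Ska. The 3 groups did not overlap, with LPS + Ska between the other two. Bcl2l1 rose 3.20-fold in mean TPM with LPS (1.62 ± 0.075 (SE) on the log2 scale, adjusted p = 3.04e-07 in limma). It was also higher with LPS + Ska than with DMSO (2.13-fold, 1.05 on the log2 scale, adjusted p = 3.11e-06). LPS + Ska differed from LPS by -0.57 (95% confidence interval -0.74 to -0.40, adjusted p = 0.000884, and 0.00509 with the recovered values). That was just inside the fold limit on that scale, although the mean TPM with LPS + Ska was 0.667 times that with LPS. Without LPS replicate 6 the difference was -0.63 and without LPS + Ska replicate 7 it was -0.59, and both passed the limit.

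The window before a start site of Bcl2l1 held a match to the κB motif, the decamer that NF-κB is known to bind. Windows of 250 bases before RefSeq start sites (GRCm38) were read on both strands, and 5.93% of all 32851 windows held such a match. Among the 14 windows of 9 of the 10 genes, 2 did, those of Bcl2l1 and Bbc3. The Bcl2l1 match lies 242 to 233 bases before 1 of its start sites, inside the first exon of a longer GENCODE transcript. It is shown at chr2:152830942-152830967, minus strand, with the match in capitals, because Bcl2l1 had the largest difference with LPS.

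Bcl2l1: tgtttgtgGGGGGTCTCCagcatacg

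A match is a description of the letters and does not show binding, and Bbc3, the other gene with a match, fell with LPS.

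Bcl2a1b (ENSMUSG00000089929, chr9:89199209-89207827, plus strand) is a copy of the gene for A1, a survival protein of blood cells. Its TPM was 24.3, 33.7 and 29.1 with DMSO, 76.7, 74.0 and 79.3 with LPS, and 62.1, 57.1 and 67.1 with LPS + Ska. Every LPS and LPS + Ska column was above every DMSO column. Bcl2a1b rose 2.64-fold with LPS (1.38 ± 0.11 (SE) on the log2 scale, adjusted p = 7.53e-06 in limma), and was 2.14-fold higher with LPS + Ska than with DMSO (1.08, adjusted p = 2.69e-05). LPS + Ska differed from LPS by -0.30 (95% confidence interval -0.55 to -0.054, adjusted p = 0.0684), which did not pass.

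The mouse genome holds near-identical copies of this gene on chromosome 9, so reads can be split among them. The annotated Bcl2a1b transcript was identical to that of Bcl2a1a in 98.2% and to that of Bcl2a1d in 99.1% of aligned bases, and 442 of its 768 windows of 50 bases (57.6%) also stood in another copy. The first 150 coding bases of exon 1 are shown for the 3 copies that were detected, since these are the letters by which a read could be assigned. They lie at chr9:89199360-89199509 (plus strand) for Bcl2a1b, chr9:88957051-88957200 (plus strand) for Bcl2a1a and chr9:88731570-88731719 (minus strand) for Bcl2a1d in GRCm38. Capitals mark bases that differ from Bcl2a1b.

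Bcl2a1b: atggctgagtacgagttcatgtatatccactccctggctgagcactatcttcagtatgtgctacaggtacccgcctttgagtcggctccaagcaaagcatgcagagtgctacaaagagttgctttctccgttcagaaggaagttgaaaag

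Bcl2a1a: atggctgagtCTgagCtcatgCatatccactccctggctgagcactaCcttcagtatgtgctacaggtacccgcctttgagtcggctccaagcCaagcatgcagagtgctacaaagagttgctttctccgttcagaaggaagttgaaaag

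Bcl2a1d: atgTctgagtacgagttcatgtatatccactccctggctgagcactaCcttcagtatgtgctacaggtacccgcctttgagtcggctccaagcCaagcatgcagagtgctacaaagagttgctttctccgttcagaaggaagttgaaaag

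Bcl2a1a differed from Bcl2a1b at 6 of these 150 bases and Bcl2a1d at 3, and over the 420 coding bases of exon 1 they differed at 10 and 5. Bcl2a1a had a TPM of 12.5, 17.1 and 17.1 with DMSO, 36.5, 37.2 and 35.9 with LPS, and 21.7, 22.3 and 21.1 with LPS + Ska. It rose with LPS (1.19 on the log2 scale, adjusted p = 1.81e-05 in limma) and fell with LPS + Ska compared with LPS (-0.72, adjusted p = 0.00174). Bcl2a1d, at 42.3, 49.6 and 51.1, then 76.5, 84.7 and 68.2, then 50.2, 47.7 and 52.7, did likewise (0.67, adjusted p = 0.000279, and -0.59, adjusted p = 0.00239). Thus all 3 detected copies were called higher with LPS, while only Bcl2a1a and Bcl2a1d were called lower with LPS + Ska compared with LPS. Of all genes tested, 12.7% were called higher in the first comparison and 6.14% lower in the second. With reads that can be split among the copies, these are not calls of separate genes.

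Because the copies share most of their sequence, their TPM was also added before the fit, with Bcl2a1c, which was at 0.64 TPM or less in every column. The sum was 92.3 ± 11.6 (SD, n = 3) with DMSO, 190 ± 6.3 (SD, n = 3 columns) with LPS and 134 ± 6.6 (SD, n = 3 columns) with LPS + Ska. It rose with LPS (1.04 on the log2 scale, adjusted p = 1.07e-05 in limma). It differed by -0.50 between LPS + Ska and LPS (adjusted p = 0.00356) and by 0.54 between LPS + Ska and DMSO (adjusted p = 0.000489), both inside the fold limits, so that the call of Bcl2a1b against DMSO was lost in the sum. Bcl2a1b held 31.4% of the summed TPM with DMSO, 40.5% with LPS and 46.2% with LPS + Ska, with no overlap between DMSO and the other groups. How the reads were assigned to the copies was not tested.

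**Figure D2:**
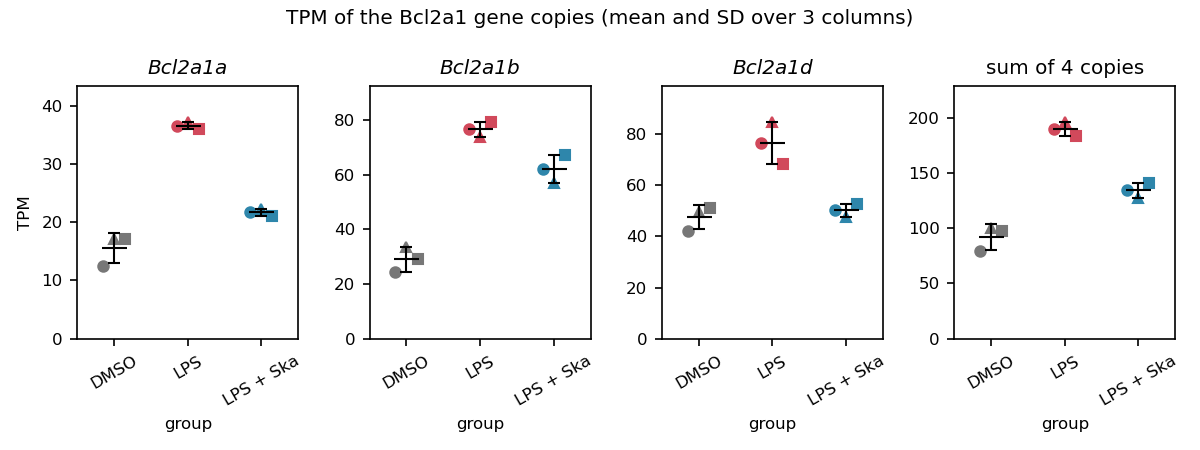
TPM of Bcl2a1a, Bcl2a1b, Bcl2a1d and the sum of the 4 copies by group, with each panel starting at 0; circles, triangles and squares are replicates 5, 6 and 7, and crosses are means with SD over 3 columns. Every LPS column was above every DMSO column in all panels, and the LPS + Ska columns of Bcl2a1d overlapped those of DMSO.

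Bcl2 (ENSMUSG00000057329, chr1:106538178-106714274, minus strand), the founder of the family, had the lowest level of the 10 genes in all 3 groups. Its TPM was 3.17, 3.97 and 2.66 with DMSO, 2.49, 2.32 and 2.67 with LPS, and 1.78, 2.13 and 1.43 with LPS + Ska. The LPS + Ska columns lay below all others, and LPS overlapped DMSO. LPS + Ska was lower than DMSO (-0.62 on the log2 scale, 0.545 times the mean TPM, adjusted p = 0.00681 in limma, and 0.0196 with the recovered values), with an SE of 0.16. That call was lost without DMSO replicate 6 (-0.50), without LPS + Ska replicate 7 (-0.52) and under median-ratio scaling (-0.49). LPS differed from DMSO by -0.28 (adjusted p = 0.152) and LPS + Ska from LPS by -0.34 (adjusted p = 0.138).

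Of the effector genes, Bax was the only one of the 10 genes called between LPS + Ska and LPS. Bax (ENSMUSG00000003873, chr7:45461697-45466898, minus strand) encodes the effector that waits in the cytosol and inserts into the mitochondrial membrane. Its TPM was 330, 307 and 356 with DMSO, 178, 170 and 187 with LPS and 295, 240 and 349 with LPS + Ska. The LPS columns lay below all others, and the LPS + Ska columns overlapped those of DMSO. Bax fell with LPS to 0.538 times its mean TPM (-0.89 ± 0.12 (SE) on the log2 scale, adjusted p = 0.000186 in limma). It was 1.65-fold higher with LPS + Ska than with LPS (0.71 ± 0.12 (SE), 95% confidence interval 0.44 to 0.98, adjusted p = 0.00292). Its LPS + Ska columns had an SD of 54.8 TPM against 8.55 with LPS, and without LPS + Ska replicate 7 the difference from LPS was 0.57, inside the fold limit. LPS + Ska and DMSO differed by -0.18 (95% confidence interval -0.45 to 0.088, adjusted p = 0.21), a difference that was at 0.000981 under median-ratio scaling.

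Bax is a known target of p53, and the 250 bases before its start site held a match to 1 unit of the p53 response element. Such a match stood in 7.13% of all 32851 windows and, among the 14 windows of 9 of the 10 genes, in that of Bax alone. It lies 201 to 192 bases before the start, at chr7:45467050-45467139 on the minus strand with its flanks, outside any annotated exon. The match is in capitals.

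Bax: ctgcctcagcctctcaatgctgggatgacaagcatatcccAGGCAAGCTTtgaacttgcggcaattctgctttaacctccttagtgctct

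Trp53, the gene of p53, was called lower with LPS, as Bax was, and differed by -0.16 (adjusted p = 0.0948 in limma) between LPS + Ska and LPS. There the p53 targets Ccng1 (0.37, adjusted p = 0.00558), Mdm2 (0.34, adjusted p = 0.00506) and Cdkn1a (0.34, adjusted p = 0.0116) differed in the direction of Bax, inside the fold limit. Sesn1 (-0.48, adjusted p = 0.00905) and Mdm4 (-0.48, adjusted p = 0.0124) differed in the opposite direction. Bbc3, a known p53 target among the genes followed, differed there by 0.23 (adjusted p = 0.392 in limma). Of 14 tested genes of p53 and its targets, 5 were higher and 4 lower there at an unadjusted p below 0.05 in limma. Their median difference was -0.043. Over all 12819 genes tested, 1139 were higher and 2524 lower there at an adjusted p below 0.05 without fold limits. The part of p53 in the level of Bax was not tested.

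Bak1 (ENSMUSG00000057789, chr17:27019810-27029009, minus strand) encodes Bak, the effector that resides in the mitochondrial outer membrane. Its TPM was 124, 116 and 162 with DMSO, 86.5, 86.7 and 86.4 with LPS and 71.5, 60.4 and 82.6 with LPS + Ska. The 3 groups did not overlap, and the order was DMSO, LPS, LPS + Ska from high to low. Bak1 fell with LPS (-0.61 ± 0.13 (SE) on the log2 scale, adjusted p = 0.00331 in limma), a call that was lost without DMSO replicate 7 (-0.47) and under median-ratio scaling (-0.53). It was lower with LPS + Ska than with DMSO, at 0.532 times the mean TPM (-0.90, adjusted p = 0.000307). LPS + Ska differed from LPS by -0.28 (adjusted p = 0.145). Of the effectors, Bax was therefore called higher with LPS + Ska compared with LPS and Bak1 was not called, with a difference of the opposite sign.

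Of the 4 BH3-only genes followed, 1 was called, lower in both comparisons with DMSO, where 20.0% and 25.3% of all genes tested were. This was Bbc3 (ENSMUSG00000002083, chr7:16308393-16318205, plus strand), which encodes Puma, a binder of all survival proteins and a known p53 target. Its TPM was 22.0, 22.3 and 23.7 with DMSO, 10.8, 8.46 and 13.2 with LPS and 12.99, 9.57 and 16.4 with LPS + Ska. Both LPS groups lay below DMSO in every column and overlapped each other. Bbc3 fell with LPS to 0.478 times its mean TPM (-1.02 ± 0.19 (SE) on the log2 scale, adjusted p = 0.00128 in limma) and was lower with LPS + Ska than with DMSO (-0.79, adjusted p = 0.00502). LPS + Ska differed from LPS by 0.23 (95% confidence interval -0.20 to 0.66, adjusted p = 0.392). The window before 1 of its start sites held 2 overlapping κB matches, 137 to 127 bases before the start, at chr7:16309406-16309496 on the plus strand with flanks, inside an intron of a longer transcript. They are shown in capitals for comparison with Bcl2l1, which went the other way with LPS.

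Bbc3: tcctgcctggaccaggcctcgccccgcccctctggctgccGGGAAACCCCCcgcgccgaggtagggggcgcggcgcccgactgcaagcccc

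Bcl2l11 (ENSMUSG00000027381, chr2:128126038-128162547, plus strand) encodes Bim, which binds all survival proteins and can activate Bax and Bak. Its TPM was 31.7, 29.9 and 34.4 with DMSO, 21.2, 23.1 and 19.3 with LPS and 25.4, 26.1 and 24.8 with LPS + Ska, with no overlap between groups. LPS differed from DMSO by -0.57 (95% confidence interval -0.76 to -0.39, adjusted p = 0.000289 in limma), just inside the fold limit of -0.578 on the log2 scale, although its mean TPM was 0.662 times that of DMSO. The limit was passed without DMSO replicate 5 (-0.58), DMSO replicate 6 (-0.62) or LPS replicate 6 (-0.64). LPS + Ska differed from LPS by 0.26 (adjusted p = 0.0466, and 0.111 with the 2 recovered values per group) and from DMSO by -0.32 (adjusted p = 0.0078). Bcl2l11 thus had a level between those of DMSO and LPS in all LPS + Ska columns, without a call.

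Bid (ENSMUSG00000004446, chr6:120891930-120916853, minus strand) encodes the BH3-only protein that is cleaved when death receptors are engaged. It had the most RNA of the BH3-only genes, with a TPM of 93.6, 101 and 104 with DMSO, 123, 126 and 121 with LPS, and 110, 112 and 108 with LPS + Ska. The columns of the 3 groups did not overlap, and LPS was the highest. LPS differed from DMSO by 0.31 (adjusted p = 0.000844 in limma), LPS + Ska from LPS by -0.17 (adjusted p = 0.0461, and 0.143 with the recovered values) and LPS + Ska from DMSO by 0.15 (adjusted p = 0.0387). The bounds of these differences, at most 0.43 from 0, were inside the fold limits.

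Pmaip1 (ENSMUSG00000024521) encodes Noxa, which binds Mcl-1 and A1. Its TPM was 41.9, 49.4 and 51.4 with DMSO, 39.5, 36.9 and 42.1 with LPS, and 38.7, 39.2 and 38.2 with LPS + Ska. LPS overlapped both other groups. LPS differed from DMSO by -0.26 (adjusted p = 0.0243 in limma) and LPS + Ska from DMSO by -0.28 (adjusted p = 0.0149), inside the fold limit. LPS + Ska and LPS differed by -0.026 (95% confidence interval -0.22 to 0.17, adjusted p = 0.844), with the sign turned under median-ratio scaling (0.071).

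**Figure D3:**
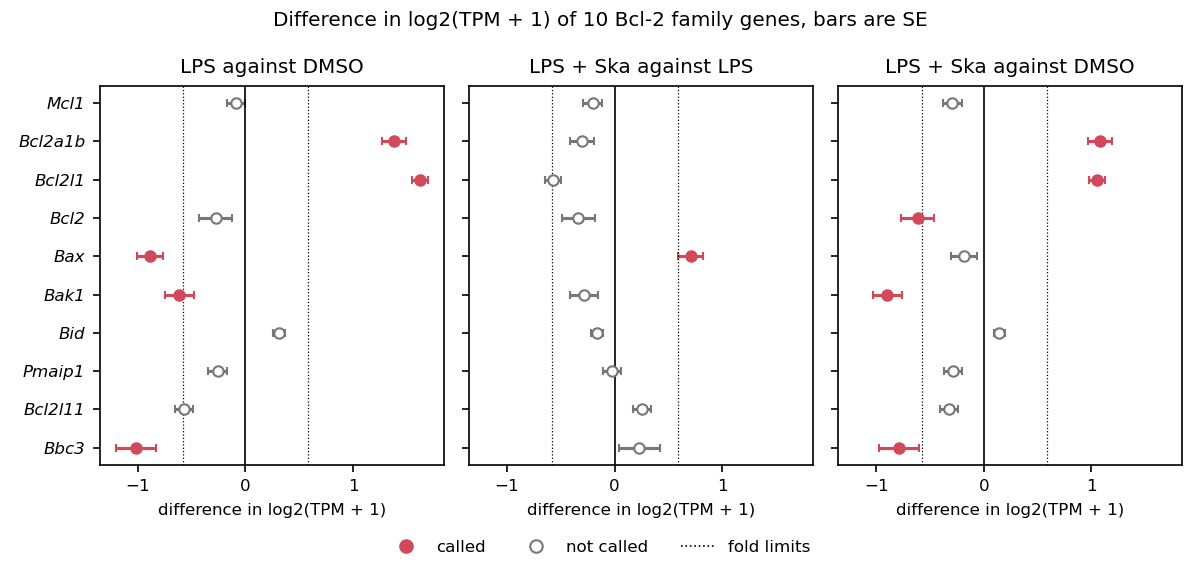
Difference in log2(TPM + 1) of the 10 genes in the 3 comparisons from limma, with SE bars; filled points were called and dotted lines are the fold limits. Bcl2l1 and Bcl2a1b stand right of the upper limit in both comparisons with DMSO, and Bax alone passes a limit between LPS + Ska and LPS.

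The order of levels shifted between groups. With DMSO it was Mcl1, Bax, Bak1, Bid, Pmaip1, Bcl2l11, Bcl2a1b, Bbc3, Bcl2l1 and Bcl2, in which Mcl1 and Bax, and Bcl2l11 and Bcl2a1b, overlapped. With LPS, Bcl2a1b and Bcl2l1 stood at ranks 5 and 6, above Pmaip1, Bcl2l11 and Bbc3, and no neighbours overlapped in their columns. With LPS + Ska the order was that of LPS, with overlap between Mcl1 and Bax, between Bak1 and Bcl2a1b, and between Bcl2l1 and Pmaip1. Bcl2l1 had moved from rank 9 with DMSO to rank 6 in both LPS groups.

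Summed by role, the survival genes took 39.8% ± 1.6 (SD, n = 3) of the TPM of the 10 genes with DMSO, 52.3% ± 0.51 (SD, n = 3 columns) with LPS and 43.3% ± 2.7 (SD, n = 3 columns) with LPS + Ska. The effectors took 42.0% ± 1.8, 27.5% ± 0.065 and 37.4% ± 4.0 of it, and the BH3-only genes 18.2% ± 0.95, 20.2% ± 0.58 and 19.3% ± 1.4. Effectors and survival genes thus carried similar amounts of RNA with DMSO, and the effector sum was 0.526 times the survival sum with LPS. With LPS + Ska that ratio was 0.723 to 1.01, against 0.987 to 1.15 with DMSO and 0.522 to 0.530 with LPS. These are descriptions of RNA sums, with no test, and most of the survival sum is Mcl1 and most of the effector sum Bax. Of the Bcl2a1 copies, only Bcl2a1b is counted here and in the share of Mcl1 above. Its mean TPM was 29.0 with DMSO, 76.7 with LPS and 62.1 with LPS + Ska. The 4 copies together had 92.3, 190 and 134 TPM, so the sums and ratios depend on which copies are counted.

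The ratio of Bax to Bcl2, Bcl2l1 and Mcl1 was lowest with LPS. Bax to Bcl2 was 104, 77.4 and 134 with DMSO, 71.5, 73.1 and 70.1 with LPS and 166, 113 and 244 with LPS + Ska, where the recovered values gave 137 and 201. LPS was below both other groups, and the LPS + Ska columns overlapped those of DMSO, while the recovered values lay above all of them. Bcl2 had the lowest level of the genes followed, at 1.43 to 3.97 TPM over all columns, so small differences in it move this ratio widely. Bax to Bcl2l1 was 18.8, 16.7 and 18.7 with DMSO, 3.05, 3.18 and 2.94 with LPS and 7.56, 6.34 and 8.70 with LPS + Ska, without overlap, so that LPS + Ska lay between LPS and DMSO. Bax to Mcl1 was 0.946, 0.823 and 0.787 with DMSO, 0.487, 0.479 and 0.494 with LPS and 0.927, 0.753 and 1.10 with LPS + Ska, and only LPS stood apart.

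**Figure D4:**
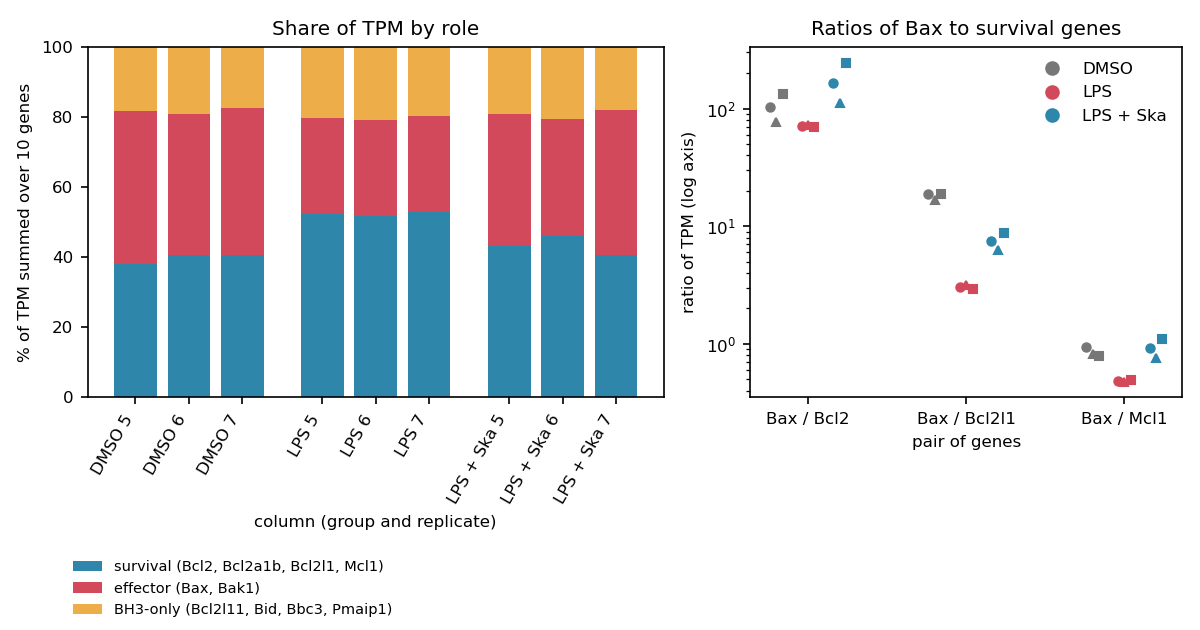
Left, the share of the TPM summed over the 10 genes that survival, effector and BH3-only genes took in each column, with bars from 0 to 100%; right, the ratio of Bax TPM to that of Bcl2, Bcl2l1 and Mcl1 on a log axis, where circles, triangles and squares are replicates 5, 6 and 7. The 3 LPS columns had the largest survival share (51.8% to 52.8%) and the lowest ratios of Bax to each of the 3 survival genes.

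Of the 27 family genes listed, the 10 included, 26 were found in the table by symbol and 20 passed the TPM filter. Of these 20, 5 were called higher and 7 lower with LPS compared with DMSO, 1 higher and 3 lower with LPS + Ska compared with LPS, and 3 higher and 6 lower with LPS + Ska compared with DMSO. Over all genes tested, the shares called higher and lower were 12.7% and 20.0%, 3.35% and 6.14%, and 11.4% and 25.3% in the same order. Bcl2l10, Bcl2a1c, Bok, Bcl2l14, Bik and Hrk were below the filter. The median difference of the 20 genes was -0.27, -0.15 and -0.29 on the log2 scale.

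Among the other survival and Bcl-2-like genes, Bcl2l2, which encodes Bcl-w, fell with LPS (-0.64, adjusted p = 0.00393 in limma) from a TPM of 11.5, 7.69 and 11.2 to 6.06, 5.44 and 6.68, and stood at 7.14, 7.17 and 7.11 with LPS + Ska. Bcl2l12 was called lower in all 3 comparisons, from 14.95, 15.6 and 16.7 with DMSO to 9.04, 8.38 and 9.70 with LPS and 5.61, 4.59 and 6.62 with LPS + Ska. Its differences were -0.74 (adjusted p = 0.00064) with LPS, -0.61 (adjusted p = 0.00609) between LPS + Ska and LPS, and -1.35 (adjusted p = 1.25e-05) between LPS + Ska and DMSO. Bcl2l15, at 0.73 TPM or less with DMSO, was called higher with LPS (1.38) and with LPS + Ska (1.04) at levels of 1.33 to 2.46 TPM. Bcl2l13, a receptor for mitophagy, was not called in any comparison (-0.11, -0.13 and -0.25).

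Of the other BH3-only genes, Bad and Bmf fell with LPS. Bad, whose protein binds Bcl-2 and Bcl-xL, fell from 32.5, 34.5 and 31.2 TPM with DMSO to 13.3, 12.1 and 14.5 with LPS (-1.24 on the log2 scale, adjusted p = 8.53e-06 in limma). It stood at 18.3, 20.5 and 16.1 with LPS + Ska, above all LPS columns by a difference inside the fold limit (0.43, adjusted p = 0.0128). Bmf fell with LPS (-1.15, adjusted p = 0.000122) and was lower with LPS + Ska than with DMSO (-1.02, adjusted p = 0.000223), at 1.04 TPM or less in both LPS groups. Bnip3 and Bnip3l, whose proteins act in mitophagy, were not called in any comparison. Bbc3, Bad and Bmf were thus the BH3-only genes called lower with LPS, out of 8 that passed the filter. Of all genes tested, 20.0% were called lower with LPS.

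Genes downstream of Bax and Bak were followed in a list of apoptosome and caspase genes. Of 14 apoptosome and caspase genes, 0 were called higher and 3 lower with LPS, where 12.7% and 20.0% of all genes were called. At an unadjusted p below 0.05 in limma, 1 and 8 of the list were higher and lower. Without fold limits, 3354 and 4380 of all 12819 genes were higher and lower with LPS at an adjusted p below 0.05. The medians of the list in the 3 comparisons, in the order used above, were -0.26, -0.073 and -0.39 on the log2 scale, against -0.067, -0.096 and -0.18 over all genes tested. The called genes included Endog, a mitochondrial nuclease (-0.85, adjusted p = 0.000675 in limma), and Parp1, a caspase substrate in DNA repair (-0.59, adjusted p = 3.11e-05). With LPS + Ska compared with LPS, 3.35% and 6.14% of all genes were called higher and lower. Of the list, Diablo alone was called there, and it was lower, at 28.5, 24.3 and 32.6 TPM against 48.9, 51.9 and 45.9 (-0.77, adjusted p = 0.00362). Diablo encodes Smac, which leaves the mitochondria with cytochrome c and blocks inhibitor of apoptosis proteins. Htra2, a mitochondrial protease released with it, was lower with LPS + Ska than with DMSO (-0.65, adjusted p = 2.17e-05), as was Parp1 (-0.89). Cycs, which encodes cytochrome c itself, differed by 0.011, -0.049 and -0.038 on the log2 scale in the 3 comparisons, without a call.

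Of 5 inhibitor of apoptosis genes, Xiap, a direct caspase inhibitor, was the one called. It rose from 37.3, 40.4 and 42.6 TPM with DMSO to 93.1, 90.9 and 95.3 with LPS (1.20, adjusted p = 1.86e-05 in limma) and was 83.1, 97.4 and 68.8 with LPS + Ska (1.02 against DMSO, adjusted p = 4.13e-05). A further 8 genes were listed as outer membrane partners of Bax and Bak, though not all of them encode proteins of that membrane. Of these, the cochaperone gene Bag3 fell with LPS (-0.63) and was lower with LPS + Ska than with DMSO (-0.61). Dnm1l, a mitochondrial fission gene, was higher with LPS + Ska than with DMSO (0.63, adjusted p = 0.000145 in limma). None of either list was called between LPS + Ska and LPS by limma, where 2 and 3 had an unadjusted p below 0.05. There 1139 and 2524 of all 12819 genes were higher and lower at an adjusted p below 0.05 without fold limits. Of all genes tested, 3.35% and 6.14% were called higher and lower there. The shares were 12.7% and 20.0% with LPS, and 11.4% and 25.3% with LPS + Ska compared with DMSO. Medians were 0.33, -0.18 and -0.088 for the inhibitors and -0.12, 0.049 and -0.065 for the partners.

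Of 10 death receptor and necroptosis genes, 3 were called higher and 3 lower with LPS, and the same counts were called with LPS + Ska compared with DMSO, against 12.7% and 20.0% of all genes in the first and 11.4% and 25.3% in the second. Fas, a death receptor, rose with LPS (1.32, adjusted p = 7.26e-06 in limma), as did Mlkl, the executioner of necroptosis (1.31, adjusted p = 4.33e-06). Tnfrsf1a, the main TNF receptor, fell (-1.16, adjusted p = 1.73e-06), as did its adaptor Tradd (-1.13, adjusted p = 3.08e-05). Fas (1.40) and Mlkl (0.83) were higher, and Tnfrsf1a (-1.21) and Fadd (-0.79), the adaptor of Fas, lower with LPS + Ska than with DMSO. None of the 10 was called between LPS + Ska and LPS by limma, where 3 had an unadjusted p below 0.05. At an adjusted p below 0.05 without fold limits, 1139 of all 12819 genes were higher in that comparison and 2524 lower. There 3.35% and 6.14% of all genes were called higher and lower. Medians of this list were 0.23, -0.016 and 0.034.

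Genes that act on the turnover of the Mcl-1 protein were 6 in number. With LPS, Usp9x, a deubiquitinase that stabilizes Mcl-1, rose (0.98, adjusted p = 9.6e-05 in limma), as did Ddx3x, a helicase gene (0.59, adjusted p = 0.00023). Between LPS + Ska and LPS, Huwe1, a ubiquitin ligase that marks Mcl-1 for degradation, was called lower, at 42.2, 51.4 and 33.0 TPM against 75.6, 74.9 and 76.3 (-0.85, adjusted p = 0.0019). It was also lower than with DMSO (-0.68, adjusted p = 0.0015), where Usp9x was higher (0.75). The 6 genes had medians of -0.013, -0.14 and -0.33. Of all genes tested, 12.7% and 20.0% were called higher and lower with LPS, and 3.35% and 6.14% between LPS + Ska and LPS. With LPS + Ska compared with DMSO these shares were 11.4% and 25.3%.

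Of 14 tested genes of p53 and its targets, 2 were called higher and 2 lower with LPS, where 12.7% and 20.0% of all genes were. Trp53 fell from 272, 275 and 263 TPM with DMSO to 178, 179 and 176 with LPS (-0.60, adjusted p = 4.72e-05 in limma), and Btg2, an antiproliferative gene, fell by 1.26 on the log2 scale. Ccng1, which encodes cyclin G (0.79), and Sesn2, a stress-response gene (0.76), rose. None of the 14 was called between LPS + Ska and LPS by limma, where 9 had an unadjusted p below 0.05, 5 of them higher. At an adjusted p below 0.05 without fold limits, 1139 of all 12819 genes were higher in that comparison and 2524 lower. There 3.35% and 6.14% of all genes were called higher and lower. Compared with DMSO, Ccng1 (1.16) and Mdm2, the ligase that degrades p53 (0.90, adjusted p = 3.11e-06), were higher and Btg2 (-0.97) and Trp53 (-0.76) lower with LPS + Ska, out of 3 called higher and 2 lower, where 11.4% and 25.3% of all genes were. The medians were 0.094, -0.043 and -0.12.

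Among 5 tested transcription regulators of BH3-only genes, Myc rose with LPS (1.85, adjusted p = 3.5e-06 in limma) and E2f1 fell (-0.60, adjusted p = 2.34e-05), and both were called in the same directions with LPS + Ska compared with DMSO (1.76 and -0.77). Of all genes tested, 12.7% and 20.0% were called higher and lower with LPS, and 11.4% and 25.3% with LPS + Ska compared with DMSO. Medians of these regulators were -0.20, -0.099 and -0.28. Of 9 NF-κB-driven survival genes, 3 were called higher with LPS, against 12.7% of all genes. They were Ier3, an early response gene (1.75, adjusted p = 0.000109), Traf1, an adaptor of TNF receptors (1.30, adjusted p = 1.86e-05), and Xiap. Tnfaip3, which encodes the NF-κB inhibitor A20, was called lower with LPS + Ska compared with LPS (-0.79, adjusted p = 0.0346), a call that was lost with the 2 recovered values per group (adjusted p = 0.105), at 6.86, 6.27 and 7.46 TPM against 12.7, 11.0 and 14.4. The 9 genes, of which Xiap, Birc3 and Cflar also stand in the lists above, had medians of 0.43, -0.18 and 0.32. Traf2, another adaptor of TNF receptors, was lower with LPS + Ska than with DMSO (-0.87, adjusted p = 0.000208).

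**Figure D5:**
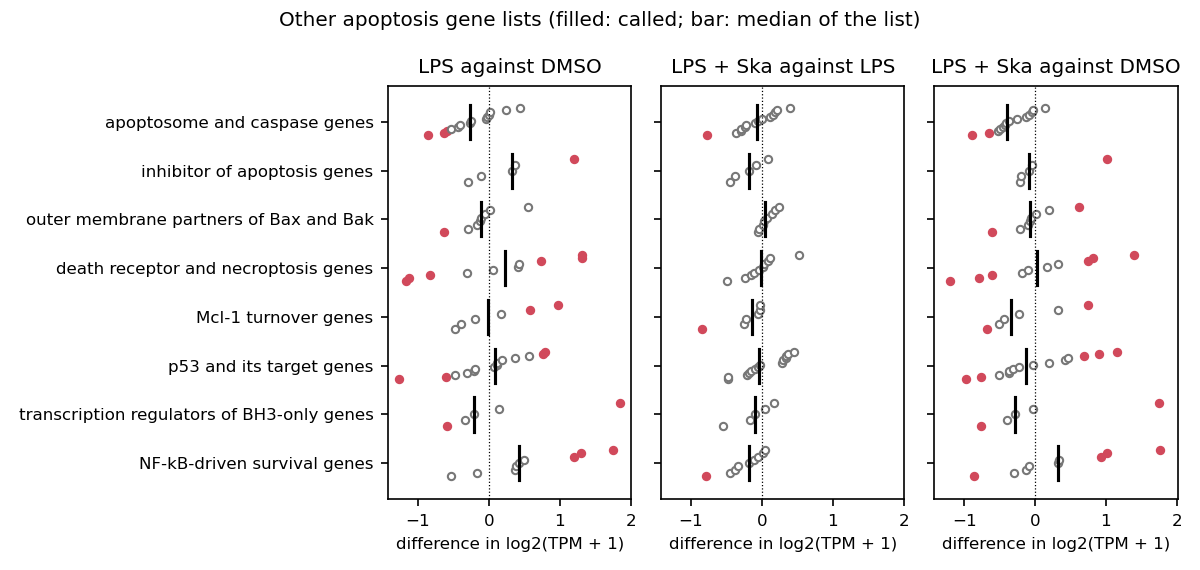
Difference in log2(TPM + 1) of each tested gene of 8 lists around the 10 genes, in the 3 comparisons; each point is a gene, filled where called, and bars are medians of the lists. Between LPS + Ska and LPS 3 genes were called, Diablo, Huwe1 and Tnfaip3, all lower, and the call of Tnfaip3 was lost with the recovered values. Of all genes tested, 3.35% were called higher and 6.14% lower in that comparison.

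For the 6 genes called in at least 1 comparison, the genes with the most similar levels were sought by the Pearson correlation of log2(TPM + 1) over the 9 columns, of which 6 are tied in sets of 3. The closest to Bcl2l1 were Apol9a (r = 0.999) and Sec16b (r = 0.994), and to Bcl2a1b Nck1 (r = 0.996) and Eif1ax (r = 0.993). Bax was closest to Dnd1 (r = 0.990) and to the pseudogene Rps2-ps10 (r = 0.989), whose reads could come from its parent gene, and Bak1 to Mydgf (r = 0.995) and Plod3 (r = 0.992). Bbc3 was closest to Dedd2 (r = 0.997) and Tsr3 (r = 0.994), and Bcl2 to Tmem203 (r = 0.996) and Ankrd37 (r = 0.993). With 12819 genes and 3 group levels, high values arise easily, and they describe likeness of level only.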

How the data were processed

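Total RNA of 9 RAW264.7 samples was sequenced. Per the submitters' processing notes, fastp 0.20.1, HISAT2 2.2.1, StringTie 2.0 and the build mm10 were used, with no settings given in the sources used here. The authors deposited TPM for 55401 Ensembl identifiers, of which 55141 matched a symbol and a GENCODE M21 gene (GRCm38, the same assembly as mm10). Columns summed to 999895 to 1000145, and 12498 to 13012 genes reached a TPM of 1 in a column. TPM keeps no depth, so no counting interval could be given.

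The test was that of limma 3.58.1 (R 4.3.3; lmFit, then eBayes with its trend option), fitted once to log2(TPM + 1) of the 9 columns, a scale that understates changes of low genes. It covered 12819 genes, those whose mean TPM was 1 or more, and Benjamini-Hochberg adjustment ran over all of them. Calls needed an adjusted p below 0.05 with a fold past 1.5 or 0.67. Alternatives were another pseudocount or TPM filter, median-ratio scaling, the compared groups alone, no trend, no fold limits, leaving out single columns and adding a replicate block.

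The deposited columns of LPS and LPS + Ska behave as a value, the value plus a difference and the value minus it, listed at 0 where negative. The recovered values, replicate 5 plus and minus 0.5 times the difference, replaced them in an alternative. To look for pairing, the mean of each group was first subtracted, gene by gene, from its columns. What remained of replicates 5, 6 and 7 correlated by 0.384, 0.151 and 0.128 between LPS and LPS + Ska. In the comparisons with DMSO these correlations were -0.032 to 0.080. Since the columns are tied in the same form, replicate numbers were treated as names only, not as pairs.

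The members and lists were chosen with earlier results of these data known. The text names the 10 genes, each tested gene of the other Bcl-2 lists, at most 4 called genes per further list and comparison by size of difference, and the 2 genes closest in profile to each called member. Cycs, Cdkn1a, Bcl2l14 and the other genes named below the filter or as a contrast were named after their values were seen. Promoters came from RefSeq (GRCm38, 9 of 10 genes matched), transcripts from GENCODE, and both were aligned or searched with Biopython 1.88 and Python 3.11.15. Figures used matplotlib 3.10.9. Some items of the lists are not reported here.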

Additional observations from a re-analysis of the deposited data

How the results depend on the processing

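Of 570 alternative values of the 30 log2 differences, 537 kept their direction and their side of the call, 17 became called, 9 lost the call and 7 changed sign. Many of these could not change sign. Another TPM filter, a replicate block, the compared groups alone, no trend and no fold limits leave the difference itself as it was. So does leaving out a column of the group not compared, and replicate 5 of a tied group is only the mean of the other 2. The 537 are therefore no measure of how firm the differences are. The sign changes were near 0: for Mcl1 between LPS and DMSO, 0.0014 with recovered values and median-ratio scaling and -0.17 to 0.022 with 1 column left out. For Pmaip1 between LPS + Ska and LPS the difference was 0.071 with median-ratio scaling, 0.074 with recovered values and that scaling, and -0.073 to 0.020 with 1 column left out. For Bax between LPS + Ska and DMSO it was 0.000981 and 0.020 under the same 2 scalings. Without fold limits 8, 4 and 9 of the 10 genes were called in the comparisons LPS with DMSO, LPS + Ska with LPS and LPS + Ska with DMSO, where 3354 and 4380, 1139 and 2524, and 2915 and 5201 of all genes were called higher and lower. A pseudocount of 0.1 called 2 of the 10 between LPS + Ska and LPS, where leaving out 1 column gave 1 to 2. Leaving out 1 column gave 4 to 6 with LPS compared with DMSO and 4 to 5 with LPS + Ska compared with DMSO. The replicate block called 5, 1 and 5 of the 10, as without it, and changed no call of the 10 genes. Between LPS + Ska and LPS, 516 genes were called lower at a mean TPM of at least 5 and 429 with recovered values and median-ratio scaling, which called 2191 higher with LPS + Ska compared with DMSO. Recovered values with that scaling and the summed Bcl2a1 copies were chosen after the data had been seen. The unknown depth, the tied columns and the absence of a group with skatole alone limit what can be read from these differences.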

Other observations

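The macrophage markers did not move as a group. Lyz2, which encodes lysozyme and made up most of their summed TPM, had a mean of 9151 with DMSO, 4423 with LPS and 10061 with LPS + Ska, and Bax, at 331, 178 and 295, had the same order of LPS below both other groups. Csf1r, the receptor of the macrophage growth factor, had a mean of 835, 522 and 467 TPM in that order, and Spi1, which encodes the transcription factor PU.1, 408, 233 and 230, so these were not back at the DMSO level with LPS + Ska. The part of these levels in the Bcl-2 family results was not tested.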
